A study of Brassica rapa subsp. rapa with 9 samples.

Results

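UV-A was compared with blue light in turnip (Brassica rapa subsp. rapa) of the red cultivar Tsuda, in the swollen hypocotyl, a storage organ whose surface reddens in light. The comparison used 6 of the 9 arrays of the series, the 3 whose titles name UV-A and the 3 whose titles name blue light. UV-A organs had been exposed for 24 hours, blue light organs for 24 hours, and every array carried RNA of dark-kept organs in its other channel. RNA came from a peeled surface layer, and per the series' design text each of the 3 biological replicates of a light pooled over 5 plants. Titles gave the groups and the replicate numbers, since the description field of all 9 samples speaks of blue light. Irradiance and wavelength are not stated there, so the lights are compared as applied and not at a matched dose. UV-B arrays (3) entered the model for the spread and are given only beside results.

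Each array gave log2(light/dark) for every clone, that is, for every spotted cDNA. The value reported is the UV-A ratio minus the blue light ratio of the same replicate number, on the log2 scale, so that a positive value means a higher ratio in UV-A. Light was in Cy3 and dark in Cy5 on all arrays, and a dye bias of a clone therefore cancels in the difference. The bias does not cancel in the ratio of a single light, so positions above or below dark are given as values only. Whether the UV-A and blue arrays of a number shared a dark sample is not stated. Less RNA of a gene per cell and fewer cells that carry it cannot be told apart in such tissue samples.

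Plants perceive blue light and UV-A largely through the same receptors, the cryptochromes and phototropins, whereas UV-B is perceived by UVR8. In Arabidopsis these routes raise chalcone synthase (CHS), the enzyme that starts flavonoid synthesis. Its product passes through flavanone 3-hydroxylase (F3H), dihydroflavonol reductase (DFR) and anthocyanidin synthase (LDOX) to the red anthocyanins, which are carried to the vacuole with the help of a glutathione transferase, ATGSTF12. Clones carry the name of their best Arabidopsis match, and clones of one name can come from different turnip copies of the gene.

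The 2507 clones tested comprised 2110 with one of 999 Arabidopsis names, 123 without a match and 273 named after other organisms. Signal over background in the light channel had medians of 8.82 to 65.8 on the UV-A arrays and 9.85 to 28.9 on the blue arrays. Spots with no clone exceeded 1.5 times background in the light channel for 79.3% of 135 spots on UV-A replicate 3 and 99.3% on blue replicate 3, against 3.7% to 7.41% on the arrays numbered 1 and 2. The spread of the clones' differences was also widest in pair 3, with an SD of 0.518, 0.715 and 0.968 in pairs 1, 2 and 3, and 30.6% of the clones differed by over 1 in pair 3. Differences correlated across clones at 0.269 between pairs 1 and 2, 0.11 between pairs 1 and 3 and 0.33 between pairs 2 and 3, where clones are not independent replicates. Of the fixed markers, the storage organ or root genes PIP1B, PIP3 and PRXR1 were measured and bright, with a signal of at least 13.9 (log2) against a median of 11.7 over all names. LHCB2.1 of leaf mesophyll was the only marker of the other cell types found by its name, with a signal of 10.2. The Rubisco small subunit AT5G38420, also of leaf mesophyll but named by its locus, was brighter with 12.4. Epidermis markers were searched for under exact names such as LTP1. The lipid transfer protein LP1, with a brightest signal of 14.1, was therefore not matched.

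No clone passed an adjusted p under 0.05 in the limma fit (0 of 2507, 0%, smallest adjusted p = 0.365), and no name did (0 of 999, 0%, smallest adjusted p = 0.31). An unadjusted p under 0.05 was found for 180 clones (7.18%), 85 higher in UV-A (3.39%) and 95 lower (3.79%), and for 84 names (8.41%), 51 higher (5.11%) and 33 lower (3.3%). The 180 and 84 became 91 and 32 without blue replicate 3, 86 and 41 without UV-A replicate 2, and 110 and 49 without UV-A replicate 3. They became 279 and 133 without UV-B replicate 3, and 139 names had such a p without blue replicate 1. The median standard error of a clone's difference was 0.384. Differences much below 1 were thus not detectable for a single clone with 3 pairs, and larger ones could be missed. The 2.69 of CHS clone 1461 did not pass either. All genes below therefore stand as measured values that did not pass over the whole array, and adjusted p-values are limma's.

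**Figure D1:**
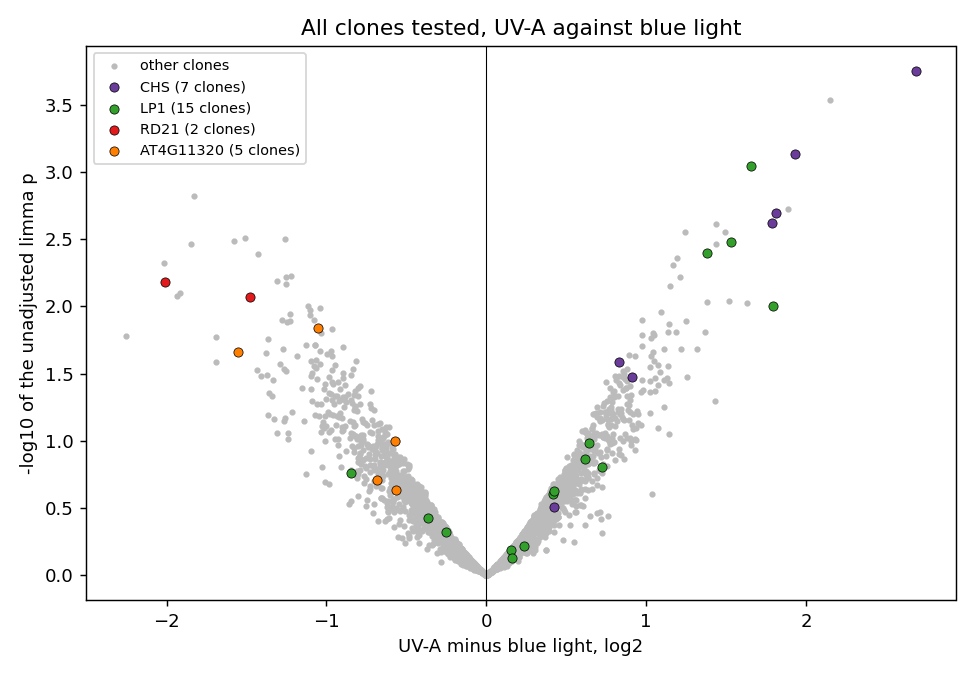
Each of the 2507 clones, with its difference of UV-A minus blue light (log2) on the x axis and -log10 of its unadjusted limma p on the y axis. Clones of CHS (7) and most of LP1 (15) lie right of 0, and those of RD21 (2) and AT4G11320 (5) lie left of it.

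CHS had the smallest p of all names, and all 7 of its clones had a higher ratio in UV-A than in blue light. Averaged over the clones, CHS had log2(light/dark) values of 1.82, 2.56 and 2.77 on the UV-A arrays, against 0.38, 0.71 and 1.61 on the blue arrays. Every UV-A array lay above every blue array, and CHS was above its dark level on all 6. The mean was 2.38 ± 0.50 in UV-A and 0.90 ± 0.64 in blue light (SD, n = 3 each), and 1.03 in UV-B. The difference of 1.48 ± 0.30 (SE), a 2.79-fold higher ratio, had adjusted p = 0.31. Of its 21 clone-by-pair differences, 20 were above 0, and the exception was clone 2417 in pair 3.

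The difference of the single CHS clones ranged from 0.42 to 2.69, and differences between clones were not tested. Clone 1461 had 2.83, 3.80 and 4.10 in UV-A, against 0.99, 0.28 and 1.40 in blue light, a difference of 2.69 ± 0.48 with adjusted p = 0.365. Clones 994, 1443 and 643 had differences of 1.93, 1.81 and 1.78. Clones 1611, 1342 and 2417 had smaller ones, of 0.91, 0.83 and 0.42, and clone 1342 was below its dark level on the blue arrays (-0.75, -0.67 and -1.12) and near it on the UV-A arrays (-0.17, 0.09 and 0.03). In 3 of the 7 clones (1461, 643 and 1342) the UV-A arrays all lay above the blue arrays, as for 5.03% of all clones. The light channel by itself was higher in UV-A for 7 of 7 CHS clones, and the dark channel was lower for 6 of 7. In those 6 clones a part of the difference thus lay in the dark channel. The shares of all clones with such channel differences were not computed. A light-channel spot was saturated on the UV-A or blue arrays for 3 CHS clones (643, 994 and 2417), so that the sizes of their differences are not exact. Clone 1461, with no saturated spot, passed when only the UV-A and blue arrays were fitted (adjusted p = 0.0162), after scale normalization between arrays (adjusted p = 0.0108) and without UV-B replicate 3 (adjusted p = 0.0379). Over the 23 settings that gave it a value, the adjusted p of clone 1461 reached 1, while its difference stayed between 2.25 and 3.72.

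F3H, a later enzyme of the pathway, was carried by 1 clone. F3H had 1.63, 1.66 and 1.79 in UV-A, against 0.71, 0.36 and -0.29 in blue light, with 0.96 in UV-B. The UV-A values of F3H lay close together and above all blue values, while the blue values lay on both sides of the dark level. The difference was 1.44 ± 0.35 (adjusted p = 0.31), and it was 1.12 without blue replicate 3 and passed only with scale normalization between arrays (adjusted p = 0.0368). The steps after F3H had smaller values. LDOX averaged 0.18, 0.21 and 0.71 in UV-A over its 3 clones, against -0.04, -0.20 and 0.31 in blue light, a difference of 0.34 ± 0.27. DFR (2 clones) had 0.34, 0.38 and 0.62 in UV-A, against -0.06, -0.28 and 1.19 in blue light, a difference of 0.16 ± 0.33, and ATGSTF12 had a difference of 0.32 ± 0.31. For these 3 genes the lights overlapped.

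Of the flavonoid and anthocyanin list, 5 of 5 measured names were higher in UV-A, 2 of them at an unadjusted p under 0.05 (CHS and F3H) and none after adjustment. The median difference was 0.34, against 0.02 over all 999 names, of which 52.5% were above 0. Within pairs 1, 2 and 3 the list's median was 0.58, 0.66 and 0.40. PAL1, which makes cinnamic acid from phenylalanine and so feeds the pathway, had 0.88, 1.24 and 0.82 in UV-A, against 0.18, 0.20 and 0.64 in blue light. PAL1 did not overlap between the lights, as for 5.03% of all clones in this direction (difference 0.64 ± 0.31, adjusted p = 0.595). PAL1 was at 1.67 in UV-B. The phenylpropanoid and lignin list had 2 of 4 names higher and a median of 0.12, which was -0.08 with print-tip loess. Its brightest member ELP, a chitinase-like protein whose loss causes ectopic lignin in Arabidopsis, had -0.12 ± 0.37, and ATOMT1, an O-methyltransferase, had 0.36 ± 0.29.

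**Figure D2:**
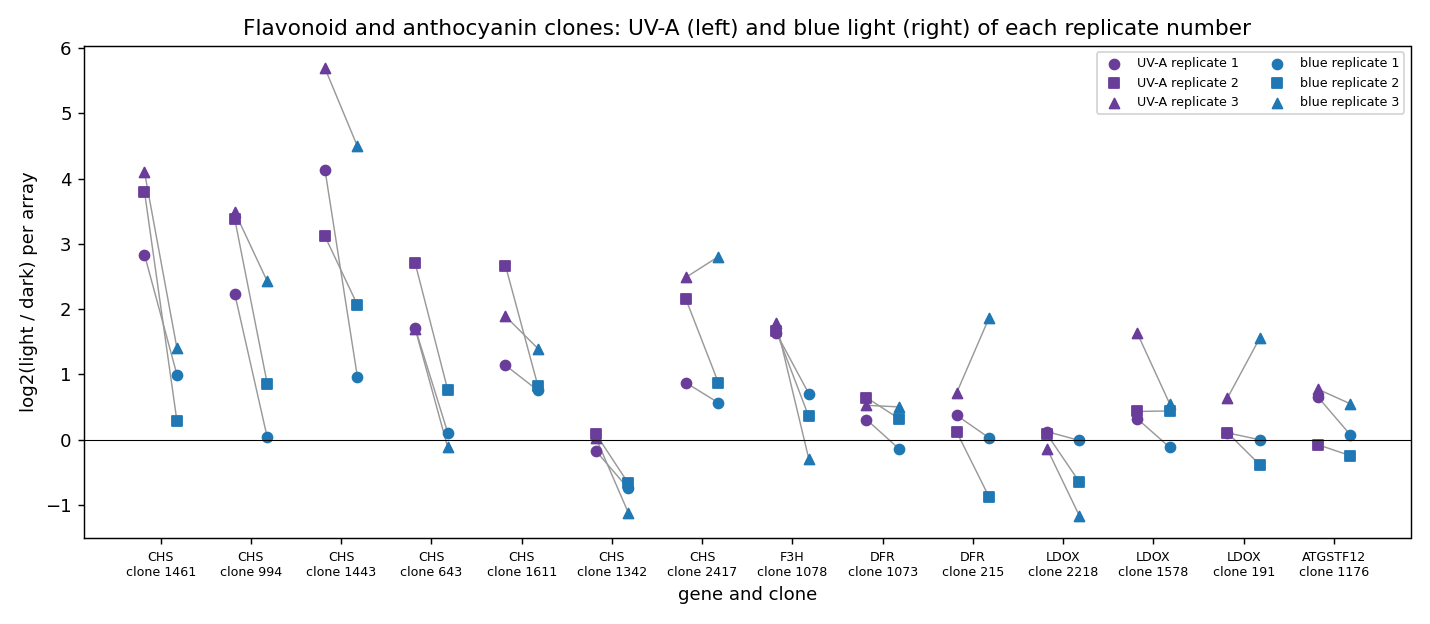
Log2(light/dark) of each array for the 14 clones of CHS, F3H, DFR, LDOX and ATGSTF12, with UV-A on the left and blue light on the right of each clone. A line joins the 2 arrays of a replicate number, and the lines run downward to blue light in 20 of 21 CHS values and in all 3 of F3H.

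Names carried by several clones were read clone by clone. Of the 199 names with at least 3 clones, all clones were higher in UV-A for 25 (12.6%) and lower for 25 (12.6%), so that 25.1% were one-sided. Among the 25 higher names, 14 had just 3 clones and 17 were higher in all 3 pairs. Among the 25 lower names, 15 had 3 clones and 17 were lower in all 3 pairs. Over all names, 20.4% were higher and 16.2% lower in all 3 pairs. The one-sided names were picked on the same pairs, so their counts cannot be compared with these shares. The number of one-sided names was 54 without replicate number 3. CHS had the largest difference of the higher names. It shared the highest number of clones, 7, with UBC10, a ubiquitin-conjugating enzyme, whose difference was 0.31 ± 0.29, with 15 of 21 clone-by-pair values above 0.

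The other one-sided names with the largest higher values came from several functions. AT3G52930, a fructose-bisphosphate aldolase of glycolysis, had 0.42, 0.61 and 0.32 in UV-A over 5 clones, against -0.12, -0.40 and -0.26 in blue light. It lay above dark on all UV-A arrays and below dark on all blue arrays, with a difference of 0.71 ± 0.35 (adjusted p = 0.595) and 1.54 in UV-B. AT5G44550, an unknown protein in the annotation, had 0.98, 0.70 and 0.67 in UV-A, against -0.38, 0.35 and -0.31 in blue light, a difference of 0.89 ± 0.33. ERD10, a dehydrin of the drought and cold response, had 0.40, 0.81 and 0.55 in UV-A, against 0.15, -0.16 and -0.18 in blue light, a difference of 0.65 ± 0.28. These 3 names, like CHS, had no overlap between UV-A and blue arrays. The same held narrowly for CCS1, described below, with a lowest UV-A value of 0.27 and a highest blue value of 0.26. Of all clones, 5.03% had all UV-A arrays above all blue arrays, and the share over names was not computed. AT5G02490, an ATP-binding protein in the annotation, had a difference of 0.69 ± 0.31, with 9 of 9 clone-by-pair values above 0. PBF1, a subunit of the proteasome core, had 0.64 ± 0.33, also with 9 of 9. CCS1, the copper chaperone of superoxide dismutase, had 0.57 ± 0.29, and AT5G25560, a ubiquitin ligase in the annotation, had 0.54 ± 0.29, each with 8 of 9. Over the settings tried, PBF1 lay between 0.29 and 0.86, CCS1 between 0.32 and 0.75, and AT5G25560 between 0.32 and 0.86.

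On the lower side, the largest one-sided difference belonged to AT5G35570, an unknown protein in the annotation. Its 3 clones averaged -0.63, -2.03 and -1.12 in UV-A, against 0.11, -0.80 and 0.34 in blue light, a difference of -1.14 ± 0.39 (adjusted p = 0.504). All 9 clone-by-pair values were below 0, although the lights overlapped between replicate numbers. AT5G41690, an RNA-binding protein in the annotation, had -0.38, -0.33 and 0.03 in UV-A, against 0.63, 0.37 and 1.22 in blue light. Here the lights did not overlap, all 9 values were below 0, and the difference was -0.96 ± 0.29 (adjusted p = 0.441). Of all clones, 4.31% had all UV-A arrays below all blue arrays. AT1G14340, a nucleic acid binding protein in the annotation, also had 9 of 9 values below 0, with a difference of -0.79 ± 0.37. AT5G26280, another unknown protein, had a difference of -0.66 ± 0.38 over 6 clones, but 0.26 in pair 1. RGP1, which interconverts forms of UDP-arabinose for the cell wall, had -0.57 ± 0.34 over 5 clones, but 0.11 in pair 1. AT5G42740, a glucose-6-phosphate isomerase, had -0.50 ± 0.30 over 4 clones, with -0.05, -0.27 and -1.17 in pairs 1, 2 and 3. These 3 names were thus most negative in pair 3, and over the settings they reached up to -0.19, -0.24 and -0.076. SIR, the sulfite reductase of sulfur assimilation, had -0.49 ± 0.27 over 5 clones, which were spread between -1.58 (clone 2506) and -0.08.

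**Figure D3:**
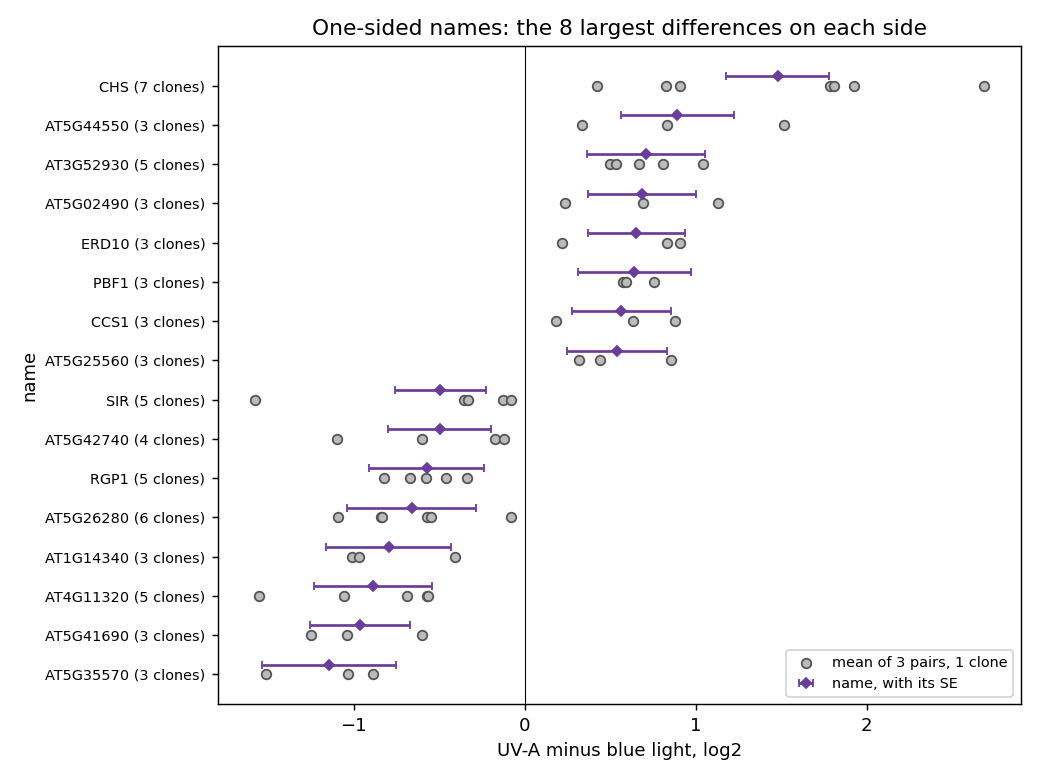
The 8 one-sided names with the largest difference on each side, with each clone's UV-A minus blue light (log2, mean of 3 pairs) as a circle and the name's value with its SE as a diamond. The 7 CHS clones run between 0.42 and 2.69, and no diamond of another name reaches the 1.48 of CHS in size.

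Both of the cysteine protease names described here had lower values in UV-A. RD21, a papain-like protease named for its response to dehydration, averaged 0.86, -0.07 and 1.28 in UV-A over 2 clones, against 2.38, 0.73 and 4.20 in blue light, with -0.48 in UV-B. Each UV-A array lay below the blue array of its number, with a difference of -1.75 ± 0.48 (adjusted p = 0.345). RD21 was above dark in both lights but for UV-A replicate 2, and blue replicate 3 held its highest value. A light-channel spot of 1 of the 2 RD21 clones was saturated. AT4G11320, a cysteine-type endopeptidase in the annotation and one-sided over 5 clones, had 0.63, 0.43 and 1.62 in UV-A, against 1.80, 0.71 and 2.82 in blue light, with -0.11 in UV-B. Its clones had differences of -1.55, -1.06, -0.69, -0.57 and -0.57, 13 of 15 clone-by-pair values were below 0, and the difference was -0.89 ± 0.35 (adjusted p = 0.513). The aspartic protease AT5G07030, annotated as pepsin A, did not share this pattern, since clone 603 had -1.83 ± 0.43 while 4 of its 5 clones were higher in UV-A and the name had -0.07. In clone 603 the dark channel was higher by 1.51 in UV-A, and the light channel lower with -0.32.

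The other clones with the smallest p-values belonged to names with few clones or with clones that differed. AT5G62350, annotated as a pectinesterase inhibitor, had 2.56, 3.69 and 3.61 in UV-A on clone 2788, against 0.52, 1.48 and 1.42 in blue light, without overlap (2.15 ± 0.41, adjusted p = 0.365). The SD of its 3 pair differences was 0.0973, and 5.03% of all clones likewise had all UV-A arrays above all blue arrays. The 4 other clones of AT5G62350 had differences of -0.43 to -0.20, so that the name had 0.17 ± 0.29. Clone 2788 of AT5G62350 passed with the UV-A and blue arrays alone (adjusted p = 0.0181) and with scale normalization (adjusted p = 0.0108). AT4G01130, an ester hydrolase in the annotation with clone 1171 alone, had 2.19, 1.90 and 2.20 in UV-A, against 0.20, 0.77 and 1.02 in blue light, without overlap (1.44 ± 0.33 as a name, adjusted p = 0.31). AT4G01130 passed as a name in the authors' processed values (adjusted p = 0.0296). AT1G03940, a transferase in the annotation, had 1.31, 0.92 and 0.65 in UV-A over 2 clones, against 0.75, -0.80 and -2.34 in blue light. Its difference of 1.76 ± 0.45 (adjusted p = 0.31), with clone 723 at 1.89, was widest in pair 3, where the blue array held the lowest value. Clone 723 lay between 1.27 and 2.45 over the 23 settings that gave it a value.

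On the lower side, AT5G18840, a sugar transporter in the annotation, had -1.43 ± 0.39 on clone 1118 and -1.25 ± 0.40 over 2 clones. AT5G53900, an unknown protein, had -1.22 ± 0.36 on clone 2699. Clone 2480 of AT5G35570 had -0.74, -2.19 and -0.73 in UV-A, against 0.54, -0.41 and 0.74 in blue light, with all UV-A arrays below all blue arrays, as for 4.31% of all clones. Clones 1756 and 2086, named after genes of other organisms, had differences of -2.02 and -1.26, and clone 1925, without a match, had -1.84. For clone 1925 the light channel differed by -0.35, and the larger share of the difference lay in the dark channel.

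Names with at least 10 clones (24 names) gave many readings of 1 name. LP1, a lipid transfer protein of the cell surface, had 0.62, 0.18 and 0.63 in UV-A over 15 clones, against 0.14, -0.32 and -0.05 in blue light, a difference of 0.55 ± 0.28 without overlap between the lights. Of the 15, 12 were higher in UV-A. Clone 441 of LP1 had 1.97, 1.43 and 2.60 in UV-A, against 0.90, -0.69 and 0.83 in blue light (1.66 ± 0.37, adjusted p = 0.509). Clones 2619, 1565 and 816 had differences of 1.80, 1.53 and 1.38, while clone 261 had -0.84. Clones 441, 816 and 1565 had all UV-A arrays above all blue arrays, as for 5.03% of all clones. GAPC, the cytosolic glyceraldehyde-3-phosphate dehydrogenase of glycolysis, had 24 of 28 clones higher (0.40 ± 0.29), and the ribosomal AT3G60245 had 9 of 11 higher (0.43 ± 0.30).

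Lower values were shared by most clones of other abundant names. AT1G54020, an ester hydrolase in the annotation, had -0.87, -1.88 and -0.97 in UV-A over 33 clones, against -0.58, -0.67 and -0.72 in blue light, with 30 clones lower and a difference of -0.58 ± 0.34. AT3G14210, also an ester hydrolase, had 26 of 28 clones lower (-0.41 ± 0.34). DIN11, named for its induction in darkness, had 24 of 25 clones lower, with -0.57, -0.16 and 0.01 in UV-A, against 0.50, -0.51 and 0.76 in blue light (-0.49 ± 0.36). DIN11 was nevertheless higher in UV-A in pair 2. The pectin methylesterase ATPME3 had 9 of 11 lower (-0.53 ± 0.29). The peroxidase PRXR1 had 18 of 29 clones higher and a difference of 0.08 ± 0.29, and the peptidase inhibitor AT1G72290 had 20 of 31 lower with -0.08 ± 0.27, so neither name leaned.

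**Figure D4:**
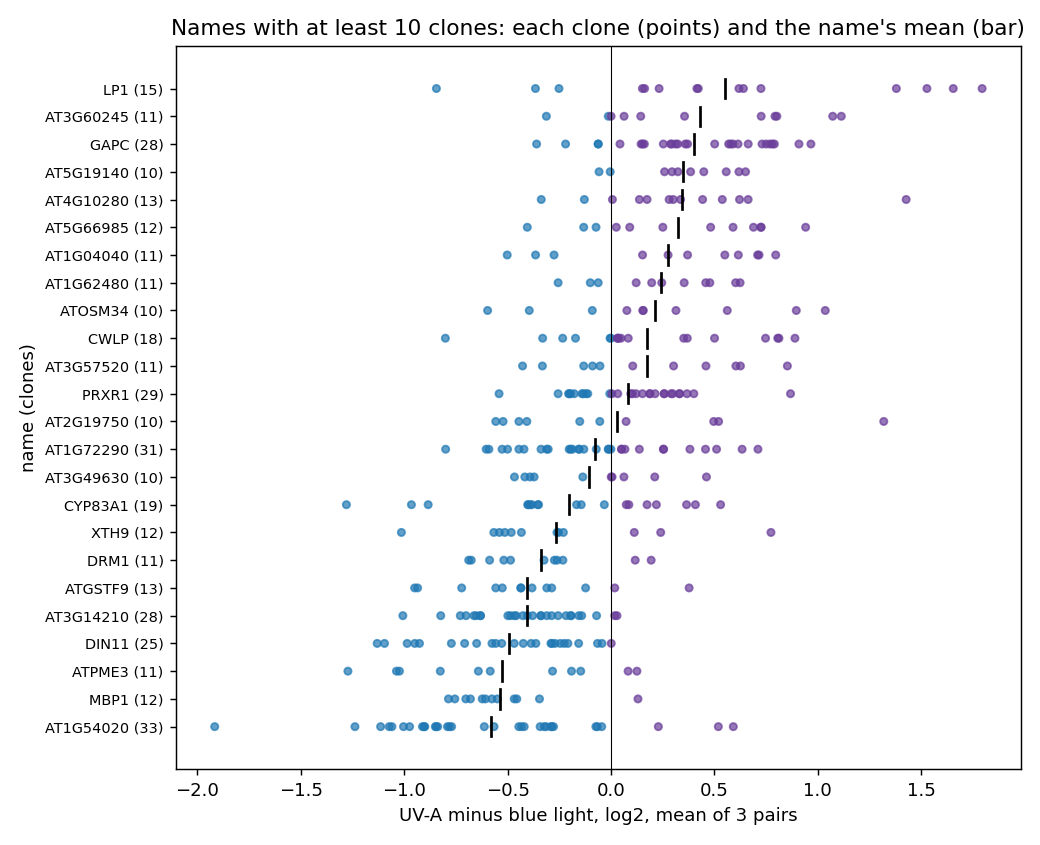
The 24 names with at least 10 clones, with each clone's UV-A minus blue light (log2, mean of 3 pairs) as a point, purple above 0 and blue below, and the name's mean as a bar. Clones of AT1G54020 (33), DIN11 (25) and MBP1 (12) lie mostly left of 0 and those of GAPC (28) and LP1 (15) mostly right.

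Glucosinolates are the sulfur-rich defence compounds of the cabbage family, made by chain elongation of amino acids and core enzymes, and broken down by myrosinases. Of the glucosinolate synthesis list, 5 of 5 names were lower in UV-A, all of them in every pair, with 1 at an unadjusted p under 0.05 (SUR1) and none after adjustment. The median was -0.48, against 0.02 over all names, of which 16.2% were lower in all pairs. MAM-L, a methylthioalkylmalate synthase homologue, had -1.47, -3.29 and -0.80 in UV-A over 5 clones, against -0.89, -2.34 and 0.30 in blue light, a difference of -0.88 ± 0.45 (adjusted p = 0.595). The difference of MAM-L was -0.45 without blue replicate 3, -0.56 without UV-A replicate 2 and -0.26 with the strict filter on dim clones. MAM1, the synthase of chain elongation, had -1.70, -3.18 and -3.07 in UV-A, against -1.04, -2.80 and -2.67 in blue light (-0.48 ± 0.31). Both genes thus had ratios below dark in UV-A, and MAM1 also in blue light. A dye bias of the clones would remain in these ratios and was not tested. The C-S lyase gene SUR1 had -0.76 ± 0.34, and the cytochrome P450 genes CYP83B1 and CYP83A1 had -0.33 ± 0.30 and -0.20 ± 0.29. CYP83A1 had 12 of 19 clones lower.

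The isopropylmalate chain elongation list, which shares MAM-L and MAM1, had 4 of 4 names lower and a median of -0.48. Its other members AT2G43100 and AT4G13430 had -0.47 ± 0.39 and -0.16 ± 0.37. The myrosinase and specifier list also had 4 of 4 lower, with a median of -0.50. MBP1, a myrosinase-binding protein, had 0.37, -0.59 and 0.62 in UV-A, against 1.32, -0.02 and 0.71 in blue light, a difference of -0.53 ± 0.43 with 11 of 12 clones lower. ESP, the epithiospecifier protein that steers the breakdown products, had -0.64 ± 0.37, the myrosinase TGG1 -0.46 ± 0.28, and MBP2 -0.27 ± 0.26. None of these names passed. The medians of these 3 lists stayed below 0 under the 24 settings that averaged the clones of a name. Some of these settings, such as those without the block or without a UV-B array, leave the differences unchanged and could not turn a median. A setting that took the brightest clone of each name is not part of these ranges. The medians lay between -0.76 and -0.37 for glucosinolate synthesis and between -0.81 and -0.34 for chain elongation. For the myrosinase list they lay between -0.65 and -0.29, with the last value without blue replicate 2.

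Ribosomal proteins had more higher than lower values in UV-A, 56 and 18 of 74 names (75.7% higher, against 52.5% over all names), with a median of 0.22. At an unadjusted p under 0.05 there were 5 higher and 0 lower, a share of higher names near the 5.11% over all names, and none passed after adjustment. Over pairs 1 and 2 alone the counts were again 56 and 18, and the median was 0.18, but without blue replicate 3 the median was 0.11. The level itself was a little below dark in both lights, with a median log2(light/dark) of -0.38 in UV-A and -0.54 in blue light. AT2G33800 had the largest difference (1.22 ± 0.41), with 1.28, 0.43 and 0.81 in UV-A, against 0.16, -0.28 and -1.02 in blue light. The brightest name, AT3G09680, had -0.05, -0.06 and -0.11 in UV-A, against -0.11, -0.50 and -0.81 in blue light (0.40 ± 0.34). Among translation factors 9 of 15 names were higher and the median was 0.11 (-0.21 with the strict filter on dim clones), with EIF3K at 0.16 ± 0.35 and TIF3H1, a subunit of initiation factor eIF3, at 0.92 ± 0.29. The proteasome and ubiquitin list had 20 of 31 higher and a median of 0.26, but 0.06 without blue replicate 3. Its brightest name UBQ11, a ubiquitin gene, had -0.68, 0.53 and 0.06 in UV-A, against -0.78, -0.26 and -1.41 in blue light (0.79 ± 0.32, adjusted p = 0.513).

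Stress and redox lists went both ways. Glutathione transferases had 3 of 7 names higher and a median of -0.35, which was -0.046 without replicate number 2 and -0.53 with print-tip loess. ATGSTF7 had -0.25, 0.34 and 0.29 in UV-A, against -0.42, -0.81 and -1.73 in blue light (1.11 ± 0.36, adjusted p = 0.468), whereas ATGSTF3 had -1.14, -0.88 and -0.74 in UV-A, against -0.58, 0.15 and 0.06 in blue light (-0.80 ± 0.29). The brightest, ATGSTF9, had -0.41 ± 0.27, with 11 of 13 clones lower. The oxidative stress list had 8 of 14 names higher and a median of 0.14 (-0.042 without blue replicate 3). APX1, the cytosolic ascorbate peroxidase, had 1.34, 1.12 and 1.14 in UV-A, against 0.71, 0.00 and 0.54 in blue light (0.78 ± 0.32), and CSD1, a copper and zinc superoxide dismutase, had 0.47 ± 0.28, beside its chaperone CCS1 above. The peroxidase AT5G64120 had -0.82 ± 0.32. The abscisic acid, cold and drought list had 4 of 7 higher and a median of 0.03 (-0.050 with scale normalization), and held both ERD10 and RD21. Its brightest member RCI2B had -0.20 ± 0.31. Of 4 defence names 1 was higher (median -0.11), with the chitinase AT2G43590 at -0.55 ± 0.35 and PR4 at 0.71 ± 0.34. Of 7 heat shock and chaperone names 3 were higher (median -0.07, or 0.15 with print-tip loess), among them CCS1, annotated as a copper chaperone.

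Light and photosynthesis genes were few on the array. The UV-B receptor UVR8, the single name measured of the photoprotection and DNA repair list (median -0.13, or 0.12 in the authors' values), had 0.05, -0.01 and 0.15 in UV-A, against 0.38, -0.10 and 0.29 in blue light. With the blue light receptor PHOT1 (0.33 ± 0.39) it formed the photoreceptor list, with a median of 0.10. Of 3 photosynthesis and chloroplast names 2 were higher (median 0.04, or -0.15 without UV-A replicate 1), with the small subunit of Rubisco, AT5G38420, at -0.43 ± 0.39 and LHCB2.1, an antenna protein, at 0.04 ± 0.30. The lights overlapped for all 4 of these genes.

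The remaining lists cover the cell surface, the cytoskeleton and carbon metabolism. The lipid transfer and cuticle list had 5 of 6 names higher and a median of 0.31 (0.16 without blue replicate 3), with CWLP, a cell wall linker protein, at 0.18 ± 0.33 beside LP1. The 2 aquaporin genes PIP1B and PIP3, water channels of the plasma membrane, had 0.60 ± 0.27 and 0.35 ± 0.41 (median 0.47, or 0.26 without replicate number 2). Cell wall genes had 10 of 22 higher (median -0.13, or -0.0011 without UV-A replicate 2), with the extensin ATEXT3 at 0.28 ± 0.32 and the pectinesterase AT5G47500 at -1.25 ± 0.44. Tubulin and actin genes had 4 of 15 higher (median -0.17, or -0.022 without replicate number 1), and TUB6 had -0.05 ± 0.30. Sugar and starch genes had 1 of 5 higher (median -0.29, or -0.0055 without blue replicate 3), with the trehalose-6-phosphate synthase ATTPS1 at -0.29 ± 0.35. Fatty acid and lipid genes had 2 of 7 higher (median -0.21, or -0.033 in the authors' values and -0.50 without replicate number 1), with the fatty acid synthase FAB1 at -0.46 ± 0.36. Dark-induced and senescence genes had 1 of 4 higher (median -0.20, or -0.085 without blue replicate 1), with DRM1, a dormancy-associated gene, at -0.34 ± 0.31. Ethylene genes had 1 of 4 higher (median -0.12, or 0.19 without replicate number 3), and ACO1, which makes ethylene, had -0.05 ± 0.60. No member of any of these lists passed after adjustment.

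**Figure D5:**
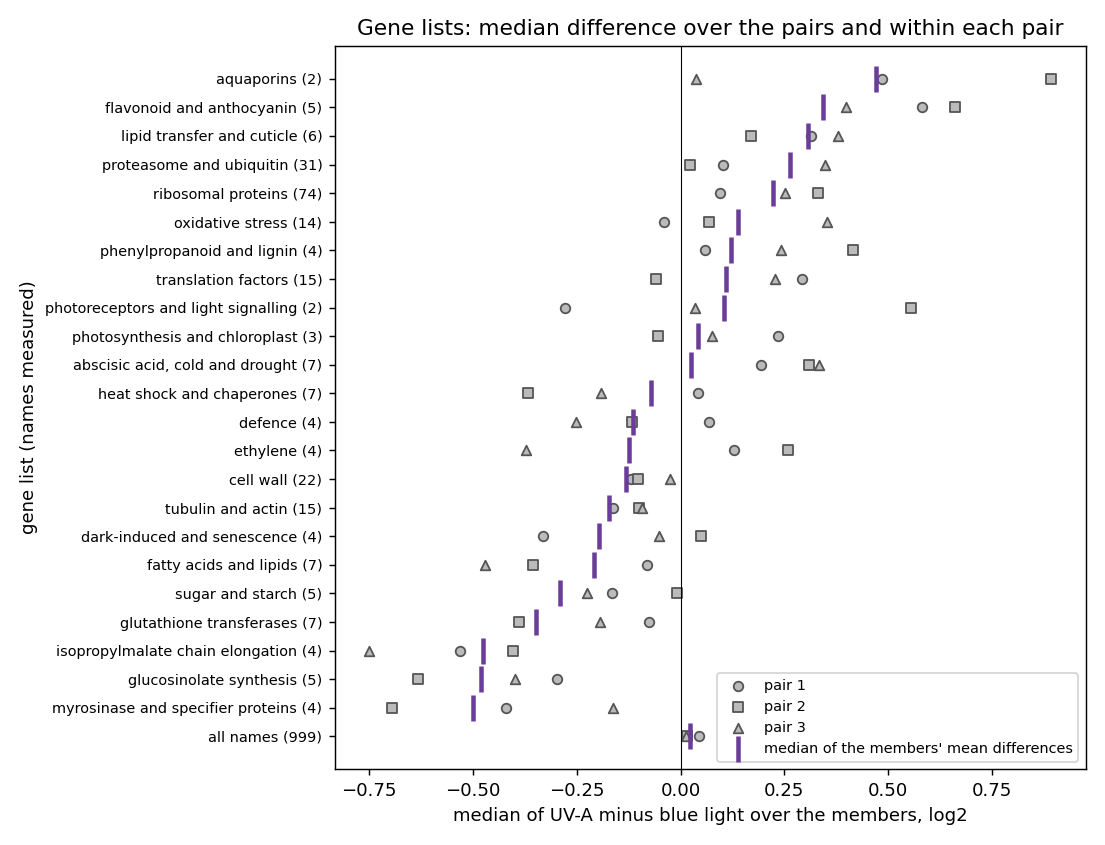
Median of UV-A minus blue light (log2) over the measured names of each gene list with at least 2 names (number in brackets), as a bar for the mean of the pairs and as points for pairs 1, 2 and 3, with all 999 names at the bottom. Both glucosinolate-related synthesis lists and the myrosinase list lie below 0 in all 3 pairs, and the flavonoid and ribosomal lists lie above 0 in all 3. The glutathione transferase, sugar and starch, tubulin and actin, cell wall and fatty acid lists also lie below 0 in all 3. The aquaporin, lipid transfer, proteasome, phenylpropanoid and abscisic acid lists also lie above 0 in all 3, as do all 999 names (0.04, 0.02 and 0.01).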

How the data were processed

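Per the labels, mRNA was labelled with a dendrimer kit, light samples with Cy3 and dark samples with Cy5. The authors deposited, for each array, linear foreground and background intensity values of both channels for 6272 spots, and a weight, a score of 0 or 1 without a stated meaning. Spots of weight 1 (5300) were used. The scanner and its software are not named there. The authors also deposited log2 values, which run as dark over light (correlation of -0.963 to -0.854 with the ratios used here), so their sign was turned. Their direction opposes that printed here, and their normalization is unstated. The authors' dark split-control arrays are not analysed here.

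Background was corrected by normexp (offset 50) and ratios by loess within arrays in limma 3.58.1 (R 4.3.3). Figures used Python 3.11.15 and matplotlib 3.10.9. Spots of a clone were averaged, and clones of a name were averaged for the fit on names. A filter on dim clones (1.5 times background on at least 3 arrays) removed 0. One two-sided limma model over all 9 arrays held a mean per light and the replicate number as a block. P-values were adjusted by Benjamini-Hochberg over all clones or all names, with a threshold of 0.05. The method was tested on simulated data. The numbers in the titles paired the arrays: deviations from the group means correlated across clones at 0.413, 0.622 and 0.608 for UV-A and blue arrays of one number and at 0.105 to 0.329 for the other same-numbered pairs, against at most 0.0591 for different numbers.

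The comparison, the 24 gene lists and the rules were chosen with earlier results of these data known. Named were the 8 clones per direction with the smallest p and all pairs on one side (none passed), the 8 one-sided names per direction with the largest difference, and the brightest member of each list. Other genes named, such as F3H, PAL1, RD21, LP1 as a name, further list members and names with many clones, were chosen after their values were seen. Array number limits the precision. A spot was saturated on the UV-A or blue arrays for 151 of 2507 clones. The alternatives were other background corrections, normalizations, filters, arrays left out, fits without the block and the authors' values. No turnip coordinates are given, because no name had a match in the table of turnip genes.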

Additional observations from a re-analysis of the deposited data

Results flagged for a closer look

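Only the genes named by rule were searched for UV-A arrays all on one side of dark and blue arrays all on the other. The aldolase gene AT3G52930 was flagged, with all 3 UV-A arrays above dark (0.42, 0.61 and 0.32, log2). All 3 of its blue arrays were below dark (-0.12, -0.40 and -0.26). The share of all names with this pattern was not computed, and a dye bias of the clones does not cancel in such levels. The difference between the lights was 0.71 ± 0.35 (SE, n = 3 pairs), positive in 3 of 3 pairs, and did not pass in limma (adjusted p = 0.595). It lay between 0.51 and 0.98 over the settings tried.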

How the results depend on the processing

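The count of clones passing was 0, and became 2 with the UV-A and blue arrays alone and the replicate block, 3 with scale normalization between arrays, and 0 to 1 with arrays left out. The count of names passing was 0, and became 5 with scale normalization (AT1G60200, AT4G01130, CHS and F3H higher and EMB1075 lower), 1 with the authors' processed values, and 0 with arrays left out. Without the replicate block 0 clones and 0 names passed, with 80 and 45 at an unadjusted p under 0.05. The count of one-sided names, 50, was 34 with the strict filter on dim clones, 64 in the authors' values and 46 to 59 with arrays left out. It was 146 for names with at least 2 clones and 21 for at least 4. All 16 named clones and 16 one-sided names kept their direction under every setting that gave them a value. This was partly fixed in advance. Named clones had all 3 pairs on one side, so leaving out a replicate number could not turn them. Fits without the block, with the UV-A and blue arrays alone, without the dim filter or without a UV-B array left the differences unchanged. CHS lay between 1.18 and 2.03. The strict filter on dim clones kept 1833 of 2507 clones. Clones such as 1461, 1443, 441 and 723 had values under 23 settings, and others such as 994 under 24. Small differences turned for 10 brightest list members. ELP had 0.017 with plain subtraction, UVR8 0.11 and ACO1 0.025 with print-tip loess, CWLP -0.033 with scale normalization, and UVR8 0.12 and PRXR1 -0.038 in the authors' values. With arrays left out, ELP ran between -0.46 and 0.17, UVR8 between -0.39 and 0.028, AT5G38420 between -0.81 and 0.19, PRXR1 between -0.12 and 0.24, RCI2B between -0.53 and 0.090, EIF3K between -0.14 and 0.42, TUB6 between -0.19 and 0.14, PIP3 between -0.069 and 0.90, ACO1 between -0.58 and 0.54 and CWLP between -0.18 and 0.45. The cause was not tested. Among the settings that averaged the clones of a name, list medians changed sign under some setting for 10 lists. These were the oxidative stress, defence, ethylene, translation factor, phenylpropanoid, heat shock, photosynthesis, photoreceptor, photoprotection and abscisic acid lists. With 3 pairs and a median standard error of 0.384, a small difference of a single clone could not be detected, and a large one could be missed.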
